A study of Mus musculus with 6 samples.

Results

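The genes of red cell identity, heme synthesis and iron handling were examined in bone marrow cells of p65 knockout and wild-type mice. The list holds 31 genes, named by function, and 29 of them had a row of the expression table with 1 gene symbol, out of 19938 genes in all. They comprise 12 of 14 listed erythroid identity genes, all 8 listed heme enzymes and all 9 listed iron handling genes. Ahsp and Epb41 were not analysed here.

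The p65 KO group comprised 3 mice labelled p65 knockout, and the p65 WT group 3 mice labelled p65 wild-type. Rela encodes p65, the subunit through which many NF-κB dimers activate transcription, and the series title places its deletion in the hematopoietic compartment. The allele, the driver of the deletion, the strain, the age and any treatment are not given in the sources used here. From each mouse, marrow cells lacking lineage markers and Flk2 and carrying c-kit and Sca-1 were sorted, which takes mainly stem cells and their first descendants, and the RNA of each mouse was read on 1 Affymetrix array as log2 signal.

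Red cells are built by a program in which the transcription factor GATA1 switches on a second factor, KLF1, and with it the genes of the membrane skeleton, the blood group proteins and the enzymes of heme synthesis. Heme is made in a chain of enzymes that starts and ends in the mitochondrion. The first step, catalysed by 5-aminolevulinate synthase, limits its rate, and mammals have a general form of this enzyme, ALAS1, and an erythroid form, ALAS2. Iron reaches the chain through transferrin receptors on the cell surface, a reductase and a transporter in endosomes, and a carrier in the inner mitochondrial membrane.

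The deleted gene was read first. Rela had a log2 signal of 7.33, 7.48 and 7.35 in the p65 KO arrays, against 7.52, 7.89 and 7.92 in the p65 WT arrays. All 3 knockout values lay below all 3 wild-type values, a log2 fold change of -0.39 (SE 0.16, limma adjusted p = 0.209), and -0.51 without p65 WT replicate 1 (adjusted p = 0.04, within 0.0292 to 0.486 over 15 alternatives). Probes outside a deleted part can keep their signal, so this is a weak check of the labels. p65 WT replicate 1 stood apart. Across genes it correlated with the other arrays at 0.951 to 0.963, against 0.982 to 0.994 among the rest, and the SD over its genes was 1.64, while the other arrays had 1.95 to 2.07. It was the lowest wild type for 23 of the 29 members, against 46.4% of all genes. Array medians over genes were 5.99 to 6.01 in p65 KO and 6.07 to 6.09 in p65 WT. Over all genes, 137 were higher and 26 lower in p65 KO at a limma adjusted p under 0.05, which is 0.818% of the genes tested, and with cyclic loess normalization the numbers were 149 and 70. As a gauge of background, the 95th percentile of 1027 olfactory receptor genes, which marrow cells are not known to use, was 5.43 in p65 KO and 5.95 in p65 WT.

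Of the 29 genes, Alas1 alone passed the test over all genes, and it was higher in p65 KO. Genes higher at this threshold made up 0.687% of all genes tested, and lower ones 0.13%. The log2 fold change was positive for 24 of the 29, against 45.9% of all genes, and the median was 0.38, against -0.04 over all genes. Fold changes in these arrays depend on signal level. When all genes were split by mean signal into 3 equal parts, the brightest held 17 of the 29, and there the medians were 0.44 for the members and 0.30 for all genes. In the middle part, which held 11, they were 0.25 and -0.09. Without p65 WT replicate 1 the corresponding medians were 0.26 and 0.13 in the brightest part and 0.20 and -0.08 in the middle one. All 3 knockout values lay above all 3 wild-type values for 5 members and below them for 2, against 19.2% and 15.4% of all genes, so such separation was not more frequent here than elsewhere. In a bulk sample of sorted cells, more cells of a type and more RNA per cell cannot be told apart.

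**Figure D1:**
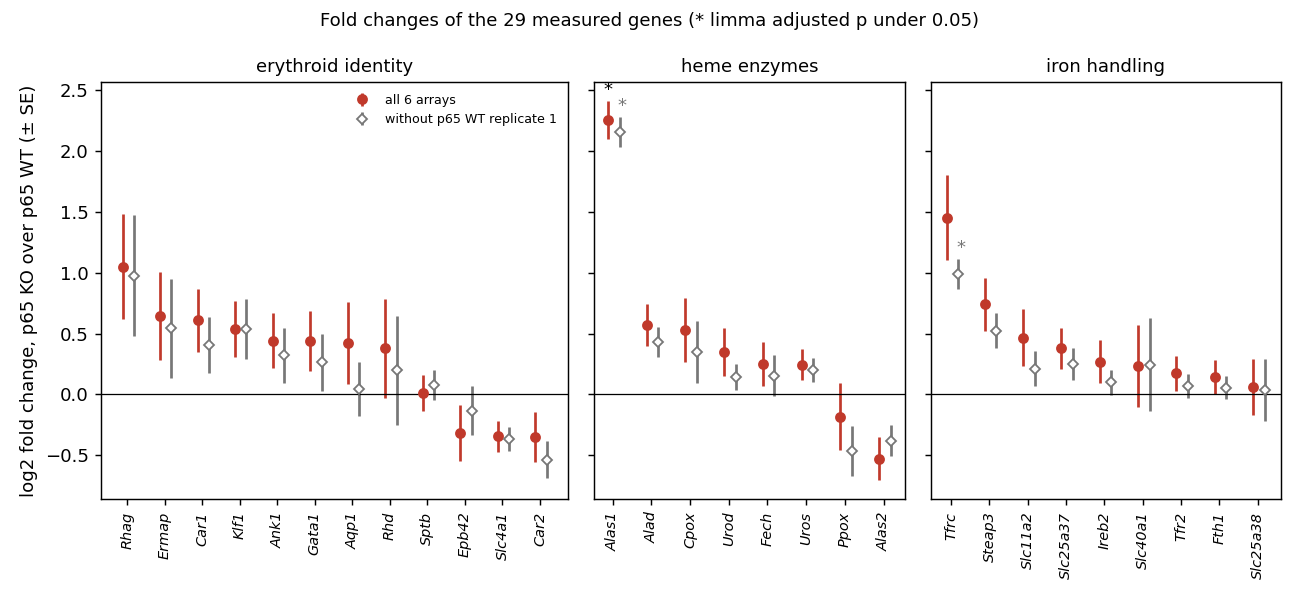
Log2 fold change of each of the 29 measured genes, p65 KO over p65 WT, by class, with its standard error from limma (3 arrays a group). Filled circles use all 6 arrays and open diamonds leave out p65 WT replicate 1, and an asterisk marks a limma adjusted p under 0.05. Alas1 lies at 2.25, far above the other heme enzymes, and Tfrc at 1.45 with all arrays and 0.99 without p65 WT replicate 1. Alas2 and Epb42 had group means under the olfactory receptor percentile in both groups.

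Of the heme enzymes, the first in the pathway changed. Alas1, the general form of the rate-limiting enzyme, had a log2 signal of 9.55, 9.57 and 9.29 in the p65 KO arrays, against 7.03, 7.27 and 7.36 in the p65 WT arrays. The 2 groups were far apart, with little spread inside either, and p65 KO replicate 2 was as high as the other knockouts. The rise was 4.76-fold (log2 fold change 2.25, SE 0.15, limma adjusted p = 0.000873), and 4.45-fold without p65 WT replicate 1. Over 15 alternatives its log2 fold change ran from 1.94 to 2.34 and its adjusted p from 3.41e-05 to 0.0143. Most markers of granulocyte and monocyte progenitors were higher in the same arrays. Of 16 such genes 10 were called higher, against 0.687% of all genes, and 0 lower. S100a9 (-0.71), Ltf (-0.30) and Ngp (-0.26) were lower in p65 KO without overlap. Ltf and Ngp had means under the olfactory receptor percentile in both groups. The list's mean log2 signal was 8.26 to 8.46 in p65 KO and 6.90 to 7.04 in p65 WT. It includes Mpo, the gene of the heme protein myeloperoxidase, at 12.16, 12.17 and 12.07 in p65 KO, against 10.85, 11.23 and 11.11 in p65 WT. Of 8 measured genes of the sorted gate and of stem cells, 0 were called higher and 1 lower, against 0.13% of all genes lower. Their median log2 fold change was -0.45, and their mean log2 signal 7.98 to 8.31 in p65 KO and 8.32 to 8.93 in p65 WT. The gene called lower was Hlf, a stem cell transcription factor gene (-1.27, limma adjusted p = 0.0485). With the replicate block Mecom, another such gene, also passed (-1.22, limma adjusted p = 0.0268, against 0.0916 without the block). Without p65 WT replicate 1, 5 of the 8 were called lower, in a fit that called 1.38% of all genes lower. The part of these markers in the rise of Alas1 was not tested.

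Alas2, the erythroid form, did not follow. Its log2 signal was 5.03, 5.31 and 5.27 in p65 KO and 6.02, 5.66 and 5.50 in p65 WT. Every knockout value lay below every wild-type value, but both group means (5.20 in p65 KO and 5.73 in p65 WT) were under the 95th percentile of the olfactory receptor genes, so no fold is given, and the difference did not pass (limma adjusted p = 0.158). The letters around the starts of Alas1 and Alas2 are shown because both genes encode the same enzymatic step. The sequences are RefSeq's, build GRCm38.p6, from 250 bases before to 50 after a transcription start, 5′ to 3′. Capitals mark GATA with an A or T before it and an A or G after it, on either strand, the letters that GATA factors prefer. A match is a run of letters and not a shown binding site.
Alas1, chr9:106247905-106248204, minus strand: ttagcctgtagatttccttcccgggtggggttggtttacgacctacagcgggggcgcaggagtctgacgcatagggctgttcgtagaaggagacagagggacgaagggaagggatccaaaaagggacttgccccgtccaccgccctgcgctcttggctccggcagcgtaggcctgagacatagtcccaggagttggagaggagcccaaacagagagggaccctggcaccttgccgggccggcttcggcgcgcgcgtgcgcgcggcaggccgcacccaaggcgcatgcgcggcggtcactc
Alas2, chrX:150547167-150547466, plus strand: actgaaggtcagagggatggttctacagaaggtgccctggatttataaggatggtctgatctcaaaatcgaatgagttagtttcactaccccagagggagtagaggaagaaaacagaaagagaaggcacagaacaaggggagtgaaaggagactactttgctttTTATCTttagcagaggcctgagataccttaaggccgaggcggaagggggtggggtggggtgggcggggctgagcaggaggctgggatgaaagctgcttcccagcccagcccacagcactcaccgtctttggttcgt
The Alas2 window holds 1 match, which starts 86 bases before the transcription start. The Alas1 window holds none, and neither does the second Alas1 window of the table. Of all 32851 windows 29.8% hold a match, as do 33.0% of the 27025 genes in any of their windows.

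The other enzymes, taken in the order of the pathway, did not pass the test. Alad, which joins 2 molecules of aminolevulinate into porphobilinogen, had 9.52, 9.28 and 9.49 in p65 KO, against 8.58, 9.11 and 8.89 in p65 WT. The groups did not overlap, but its log2 fold change of 0.57 (SE 0.17) did not pass (limma adjusted p = 0.136). Uros, which closes the porphyrin ring, had a log2 fold change of 0.25, again without overlap, since its 3 knockout values were 6.48 to 6.54 and its wild-type values 6.17 to 6.35. Urod, which decarboxylates the ring's side chains, had 0.35, or 0.14 without p65 WT replicate 1. Cpox, the coproporphyrinogen oxidase gene, had a log2 signal of 8.57, 7.74 and 8.39 in p65 KO and 7.34, 8.10 and 7.68 in p65 WT. The groups overlapped, because p65 KO replicate 2 lay with the wild types (log2 fold change 0.53, SE 0.26, limma adjusted p = 0.273). The last steps had log2 fold changes of -0.18 for Ppox, the protoporphyrinogen oxidase gene, and 0.25 for Fech, which inserts iron into the finished ring. Of the 8 enzymes 1 was called higher and 0 lower, and the class median log2 fold change was 0.30, or 0.18 without p65 WT replicate 1.

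**Figure D2:**
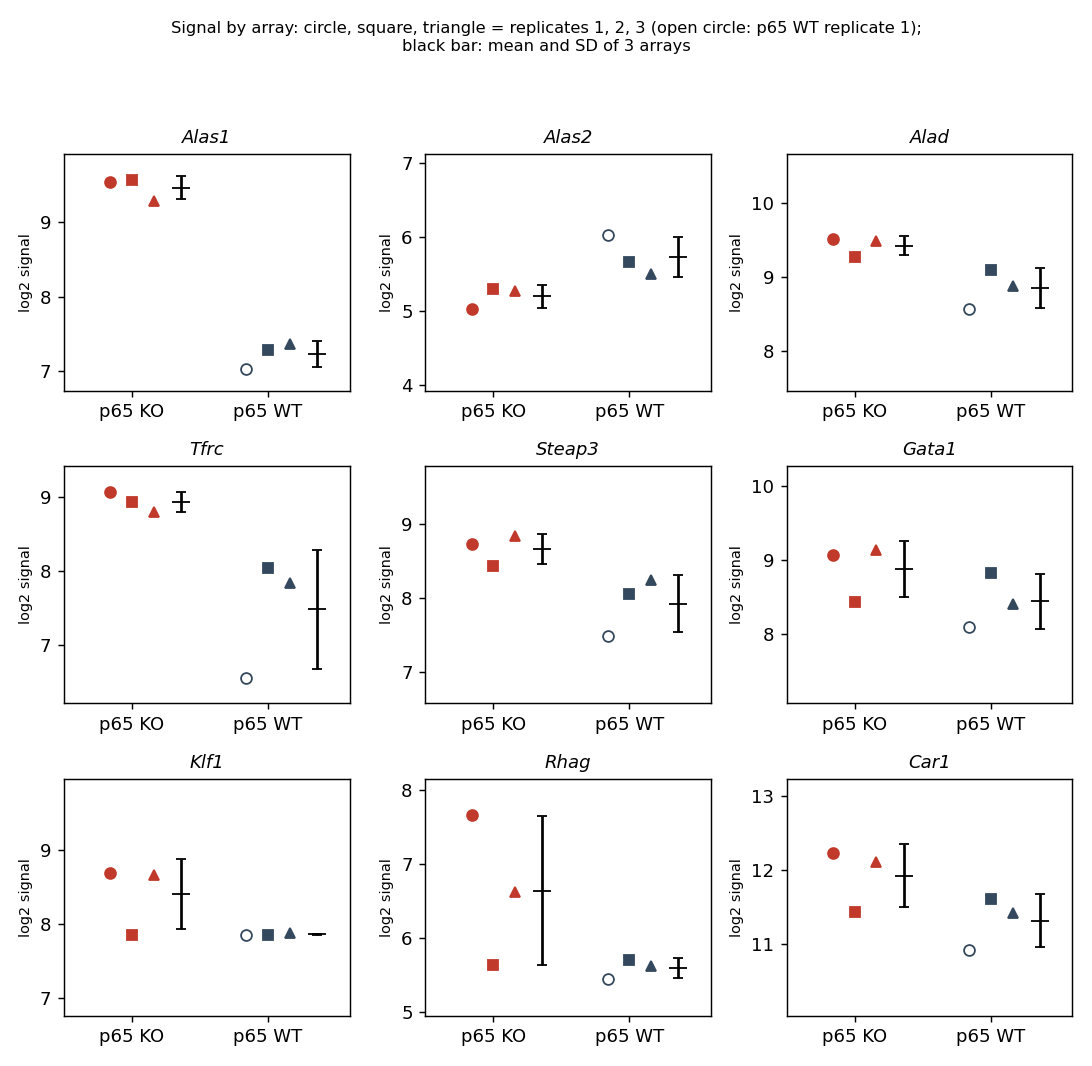
Log2 signal on each array of 9 genes, with p65 KO left of p65 WT. Coloured points are arrays (circle, square and triangle for replicates 1, 2 and 3, the open circle being p65 WT replicate 1), and black bars give the mean and SD of 3 arrays. The groups do not overlap for Alas1, Alad, Tfrc and Steap3, higher in p65 KO, and for Alas2, lower and under the olfactory receptor percentile. For Klf1, Rhag, Gata1 and Car1 the square of p65 KO replicate 2 lies level with the wild types.

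Among the iron genes, the transferrin receptor stood out. Tfrc, which encodes the receptor that takes up transferrin-bound iron, had a log2 signal of 9.06, 8.94 and 8.79 in the p65 KO arrays, against 6.56, 8.04 and 7.84 in the p65 WT arrays. The knockouts were close together and above every wild type, and p65 WT replicate 1 was far below the other wild types. The log2 fold change was 1.45 (SE 0.35), or 2.73-fold, with a limma adjusted p of 0.0925. With the replicate number as a block the adjusted p was 0.0421, in a fit that called 1.87% of all genes (1.41% higher and 0.451% lower). Without p65 WT replicate 1 the fold was 1.99 and the adjusted p 0.0152, in a fit that called 4.66% (3.28% higher and 1.38% lower). Over 15 alternatives the adjusted p ran from 0.00755 to 0.332, and leaving out any knockout raised it to 0.307 or more. Tfrc is also a gene of dividing cells in general, not of red cell precursors alone.

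Tfr2, the second transferrin receptor, which in liver senses iron saturation and in erythroblasts binds the erythropoietin receptor, was nearly level. It had 8.16, 8.10 and 8.17 in p65 KO and 7.76, 8.12 and 8.03 in p65 WT, and without p65 WT replicate 1 its log2 fold change was 0.07. Steap3, the endosomal reductase that turns ferric into ferrous iron after uptake by the transferrin receptor, had 8.73, 8.44 and 8.83 in p65 KO, against 7.49, 8.05 and 8.24 in p65 WT. Its groups did not overlap, yet its 1.67-fold difference did not pass (limma adjusted p = 0.131), and it was 1.44-fold without p65 WT replicate 1. Slc11a2, the endosomal iron transporter DMT1, had 6.95, 6.87 and 7.20 in p65 KO and 6.03, 6.95 and 6.64 in p65 WT. These values overlapped, with a log2 fold change of 0.46 (SE 0.23), or 0.21 without p65 WT replicate 1. Slc25a37, the mitochondrial iron importer mitoferrin-1, had 8.10, 8.27 and 8.16 in p65 KO and 7.54, 7.76 and 8.10 in p65 WT. Its lowest knockout value barely missed separation from the highest wild-type one (log2 fold change 0.38, SE 0.17, limma adjusted p = 0.243, and 0.25 without p65 WT replicate 1).

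The remaining iron genes were flatter. Fth1, the ferritin heavy chain gene, had 0.14 as its log2 fold change, and Slc25a38, a mitochondrial carrier of glycine for heme synthesis, had 0.06. Under quantile normalization Slc25a38 and Tfr2 turned slightly negative (-0.0080 and -0.040), and under cyclic loess normalization these 2 and Fth1 did (-0.066, -0.12 and -0.029). Ireb2, which encodes the iron regulatory protein IRP2 that stabilises transferrin receptor RNA when iron is scarce, had 0.27, or 0.10 without p65 WT replicate 1. Slc40a1, the iron exporter ferroportin, had a log2 signal of 6.97, 5.54 and 6.76 in p65 KO and 6.21, 6.15 and 6.21 in p65 WT. Here the knockouts lay on both sides of the narrow wild-type range, so its log2 fold change of 0.23 (SE 0.33) averages unlike mice. None of the 9 iron genes passed limma with all 6 arrays, 2 had an unadjusted p under 0.05 (Tfrc and Steap3, both higher, as 13.8% of all genes were), and the class median was 0.27, or 0.21 without p65 WT replicate 1. That median was 0.097 under cyclic loess normalization.

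The erythroid identity genes gave a different picture, in which the knockout mice disagreed. Gata1, the transcription factor gene that heads the red cell program, had 9.08, 8.44 and 9.13 in p65 KO and 8.09, 8.83 and 8.41 in p65 WT. Klf1, the erythroid Krüppel-like factor gene, had 8.69, 7.86 and 8.67 in p65 KO, against 7.86, 7.86 and 7.88 in p65 WT. Knockouts 1 and 3 were thus clearly above the wild types for Klf1, whose wild-type SD was only 0.0089, while knockout 2 was level with them. Rhag, the Rh-associated glycoprotein gene of the red cell membrane, had 7.66, 5.64 and 6.63 in p65 KO, against 5.45, 5.71 and 5.62 in p65 WT. Car1, the erythroid carbonic anhydrase gene, had 12.23, 11.44 and 12.11 in p65 KO, against 10.92, 11.62 and 11.42 in p65 WT. In both genes knockout 2 lay inside the wild-type range and the other knockouts above it.

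None of these differences passed the test with all arrays. The log2 fold changes were 1.05 for Rhag (SE 0.43, limma adjusted p = 0.212), 0.61 for Car1 (SE 0.26), 0.54 for Klf1 (SE 0.23) and 0.44 for Gata1 (SE 0.25). The wild-type mean of Rhag (5.59) was under the 95th percentile of the olfactory receptor genes, so the size of its difference is uncertain. It was 0.54 without p65 KO replicate 1 and 1.55 without p65 KO replicate 2. Ermap, a membrane protein of the Scianna blood group, had 0.64, Ank1, the ankyrin that ties band 3 to the membrane skeleton, had 0.44, Aqp1, the water channel, 0.42, and Rhd, the Rh blood group D antigen, 0.38. Ermap had 0.25 without p65 KO replicate 1 and 1.06 without p65 KO replicate 2. Without p65 WT replicate 1 the values of Gata1, Rhd and Aqp1 were 0.26, 0.20 and 0.04. By limma 0 of the 12 genes rose and 0 fell. At an unadjusted p under 0.05 there were 3 higher and 1 lower, against 13.8% and 7.76% of all genes, 21.6% together.

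The other 4 genes of the class had log2 fold changes near or below 0. Slc4a1, which encodes the anion exchanger band 3, the most abundant membrane protein of mature red cells, had 5.67, 5.63 and 5.62 in p65 KO, against 5.94, 6.07 and 5.94 in p65 WT. The groups did not overlap and p65 KO was lower, with a log2 fold change of -0.34 (SE 0.13, limma adjusted p = 0.184). Both group means lay a little above the olfactory receptor percentiles. Sptb, the beta-spectrin gene, was level (0.01) with a wild-type mean under that percentile, and Epb42, the protein 4.2 gene, had -0.32 with both group means under it. Car2, a carbonic anhydrase gene that is not restricted to red cells, had -0.35 (SE 0.20), and -0.53 without p65 WT replicate 1.

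How far p65 KO replicate 2 departed from the other knockouts was therefore measured for every gene. Replicate 2 was singled out after values of erythroid identity genes were seen. Its counts and medians in that class thus describe these arrays and are not a test. Among the erythroid identity genes p65 KO replicate 2 was the lowest of the 3 knockouts in 10 of 12, against 31.3% of all genes. Its value minus the mean of the other knockouts had a median of -0.73 in this class, -0.09 in the heme enzymes and -0.07 in the iron genes, against 0.00 over all genes. The range over the 3 knockouts had a median of 0.75 in this class, against 0.21 over all genes, and the same range over the 3 wild types was 0.52 and 0.50. Rhag (-1.51), Ermap (-1.24), Rhd (-1.10) and Klf1 (-0.82) departed most among the erythroid genes, and of the other members Slc40a1 (-1.32) and Cpox (-0.74) did so by a similar amount. Rhd had 7.28, 5.62 and 6.18 in p65 KO and 5.63, 5.84 and 6.48 in p65 WT. For that gene only knockout 1 lay above the wild types, and knockout 3 lay inside their range. The 2 genes in which replicate 2 was not the lowest knockout were Slc4a1 and Epb42. Without p65 KO replicate 2 the median log2 fold change of the class was 0.68, against 0.43 with all arrays, and without p65 WT replicate 1 it was 0.23. In each of these fits 0 of the 12 genes passed limma, where 0.105% and 4.66% of all genes did.

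**Figure D3:**
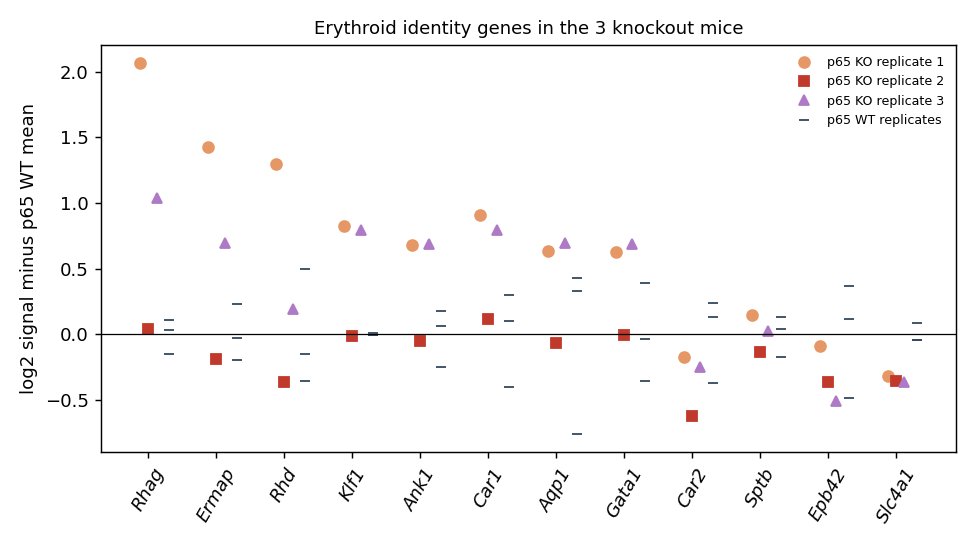
Log2 signal of the 12 erythroid identity genes in each p65 KO mouse minus the p65 WT mean, ordered by how far replicate 2 lies below the other knockouts, with short bars for the 3 p65 WT mice. Replicate 2 lies near 0 for Rhag, Klf1, Ank1 and Gata1, where replicates 1 and 3 lie at 0.63 to 2.06.

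Some other markers also differed in that mouse, of which Ebf1, Cd79a and S100a8 are named after their values were seen. Ebf1, a B cell transcription factor gene, was at 6.66 in p65 KO replicate 2, against 5.26 and 5.23 in the other knockouts and 5.04 to 5.41 in p65 WT. Cd79a, a B cell receptor chain gene, was at 7.34 there, against 6.29 and 6.11 in the other knockouts and 5.77 to 6.64 in p65 WT. The 13 measured lymphocyte markers had a mean log2 signal of 5.28 in that array, 5.07 and 4.92 in the other knockouts and 5.02 to 5.37 in p65 WT. By limma 0 of them passed. Replicate 2 was the lowest knockout in 4 of the 13, with a median departure of 0.09. S100a8, of the granulocyte and monocyte list, was lower there, at 7.04, against 8.12 and 8.26 in the other knockouts. In that list replicate 2 was the lowest knockout in 4 of 16. The 10 megakaryocyte and platelet markers are of the lineage nearest to red cells. Their mean log2 signal was 8.23, 8.46 and 8.72 in p65 KO replicates 1, 2 and 3, and 8.13 to 8.78 in p65 WT. None of them passed limma. In this list p65 KO replicate 2 was the lowest knockout in 0 of 10, and p65 KO replicate 1 was the lowest throughout. The 13 macrophage markers had 5.42 to 5.51 in p65 KO and 5.41 to 5.75 in p65 WT, with 0 past the test. With the replicate block Cd68, a gene of lysosomes in macrophages and other myeloid cells, passed (2.33-fold, limma adjusted p = 0.0151, against 0.0622 without the block). Without p65 WT replicate 1, a fit that called 4.66% of all genes, 1 gene each of the platelet, macrophage and lymphocyte lists passed. Ppbp (-2.57) and Cd3d (-0.55) were lower in p65 KO and Cd68 (1.05) was higher. Cd3d had means under the olfactory receptor percentile in both groups. No part of these lists in the erythroid differences was tested.

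The windows around the starts of the 4 erythroid identity genes that departed most in knockout 2 are shown, a choice made by those values. Sequence source, capitals and orientation are as for Alas1 and Alas2.
Rhag, chr17:40810899-40811198, plus strand: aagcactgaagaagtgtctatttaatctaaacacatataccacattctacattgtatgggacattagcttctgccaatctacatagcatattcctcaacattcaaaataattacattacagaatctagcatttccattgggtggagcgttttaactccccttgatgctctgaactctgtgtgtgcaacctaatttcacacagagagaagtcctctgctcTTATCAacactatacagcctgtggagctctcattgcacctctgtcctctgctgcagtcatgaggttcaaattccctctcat
Ermap, chr4:119189946-119190245, minus strand: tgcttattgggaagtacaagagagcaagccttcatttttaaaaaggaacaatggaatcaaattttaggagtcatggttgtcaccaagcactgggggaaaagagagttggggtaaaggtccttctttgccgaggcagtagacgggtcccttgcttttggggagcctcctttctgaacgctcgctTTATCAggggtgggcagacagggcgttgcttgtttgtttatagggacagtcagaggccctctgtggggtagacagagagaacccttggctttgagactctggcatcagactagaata
Rhd, chr4:134864286-134864585, plus strand: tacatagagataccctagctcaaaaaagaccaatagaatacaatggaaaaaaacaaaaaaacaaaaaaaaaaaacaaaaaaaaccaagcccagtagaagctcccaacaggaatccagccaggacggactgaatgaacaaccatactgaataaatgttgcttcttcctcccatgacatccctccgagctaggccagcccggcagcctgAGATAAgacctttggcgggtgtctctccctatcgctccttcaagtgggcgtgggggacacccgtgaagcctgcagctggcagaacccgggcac
Klf1, chr8:84901732-84902031, plus strand: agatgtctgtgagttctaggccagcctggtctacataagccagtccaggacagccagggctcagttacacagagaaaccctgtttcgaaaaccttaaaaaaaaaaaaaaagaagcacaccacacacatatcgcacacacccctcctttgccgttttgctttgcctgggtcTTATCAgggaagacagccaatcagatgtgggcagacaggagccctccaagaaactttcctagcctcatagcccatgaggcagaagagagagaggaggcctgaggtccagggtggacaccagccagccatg
Each holds 1 GATA match, which starts 31 bases before the transcription start in Rhag, 43 in Rhd, 67 in Ermap and 80 in Klf1. Windows were found for 21 of the 29 genes. A gene was counted when any of its windows held a match. This held for 6 of 8 erythroid identity genes, against 33.0% of all genes. It held for 3 of 7 heme enzyme genes (Alas2, Uros and Cpox) and 3 of 6 iron genes (Tfr2, Steap3 and Fth1). Over all classes it held for 12 of the 21 genes. For all members together the excess was smaller by window, as 38.7% of the 31 member windows held a match, against 29.8% of all windows. The erythroid identity genes had 1 window each, so their count by window is the same as by gene. Gata1 and Aqp1, which departed by -0.66 and -0.73 in knockout 2, had none of these letters in the window. Epb42, which departed by -0.07, had 1 match. Whether a match goes with the departure was not tested. The letters of the kappaB consensus, which NF-κB prefers, were found in 2 of the 21 genes, Tfr2 and Steap3, against 5.14% of all genes. By window the shares were 6.45% for the members and 4.51% for all. The 2 Alas1 and the 2 Tfrc windows held none. In Tfr2, which did not pass the test, the match read GGGACTTTCC, in the window chr5:137570470-137570769.

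**Figure D4:**
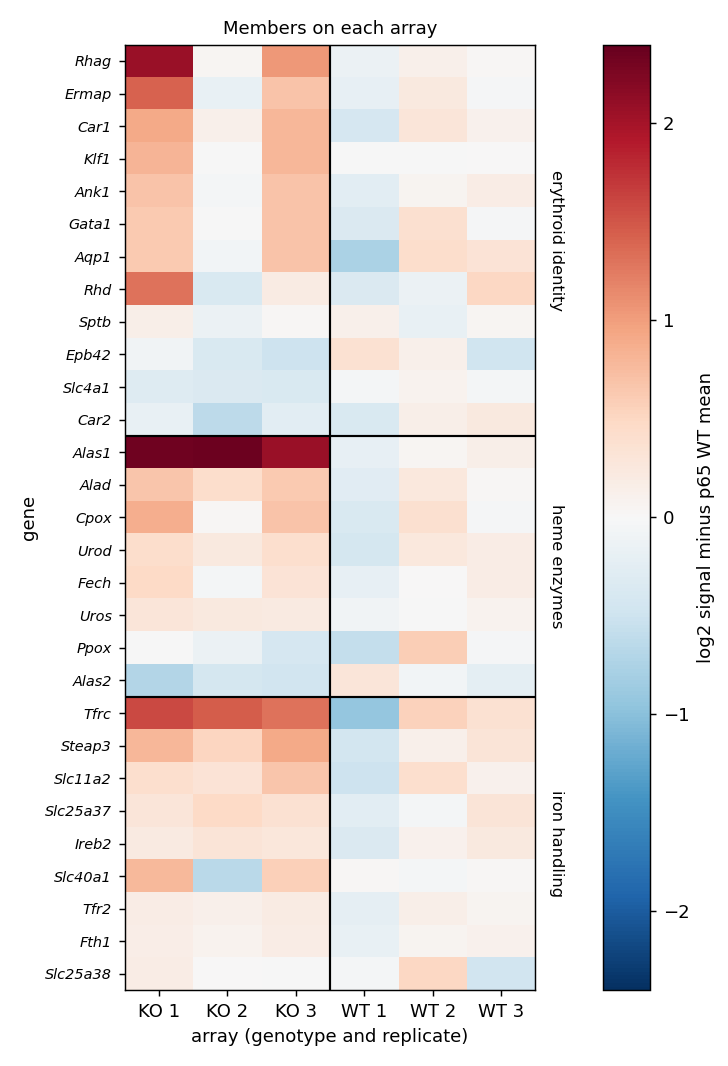
Log2 signal of the 29 genes on each array minus the p65 WT mean of that gene, with p65 KO arrays left of p65 WT arrays and classes separated by lines. The Alas1 row is evenly red over the 3 knockouts, whereas the upper erythroid rows are red in KO 1 and KO 3 and pale in KO 2. WT 1 is blue in most rows.

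Paralogues were set against each other within arrays, which removes whatever an array shares between both genes. Of 5 pairs compared, Alas1 with Alas2 and Rhag with Rhd get no size here, because Alas2 in both groups and Rhag in the wild types had means under the olfactory receptor percentile. For Tfrc minus Tfr2 the difference changed by 1.28 (SE 0.37) between p65 KO and p65 WT, or by 0.92 without p65 WT replicate 1, and for Car1 minus Car2 by 0.96 (SE 0.14), or by 0.94. In both pairs all 3 knockouts lay above all 3 wild types. The exact permutation p, two-sided, was 0.1 for each of them, the smallest that 3 against 3 arrays allow, and 0.125 after adjustment over the 5 pairs, so no pair could pass. For Slc25a37 minus Slc25a38 the change was 0.32 (SE 0.40), with overlap (exact permutation p = 0.5). For Car1 minus Car2, p65 KO replicate 2 stood at 0.74 relative to the wild-type mean, against 1.09 and 1.04 in the other knockouts and -0.14 to 0.17 in p65 WT, although Car1 alone overlapped.

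**Figure D5:**
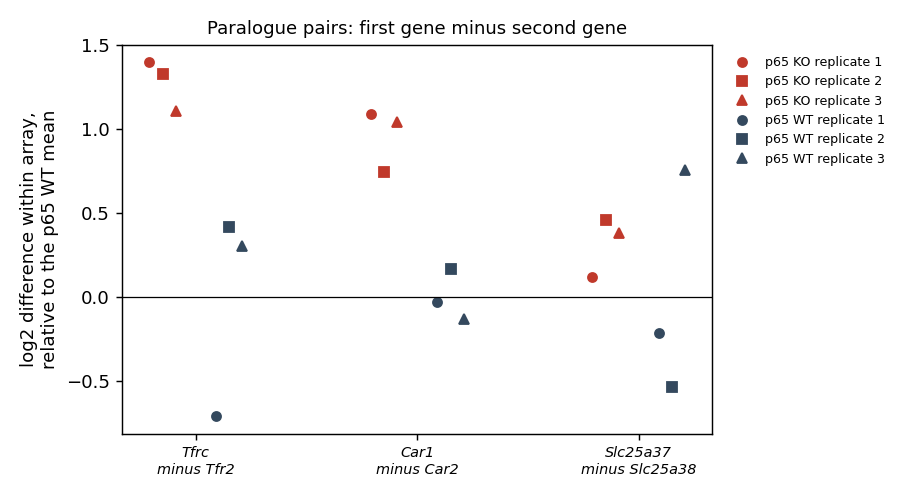
Log2 signal of the first gene minus that of the second within each array, relative to the p65 WT mean of that difference, for the 3 paralogue pairs in which both genes had group means above the olfactory receptor percentile. Points are arrays, p65 KO left of p65 WT. The knockouts lie above the wild types for Tfrc minus Tfr2 and for Car1 minus Car2, at 0.74 to 1.09 in the second, and overlap with them in the last.

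Genes of the same pathways outside the list were also counted, from lists written with earlier results known. Of 26 other erythroid genes, 13 with a positive and 13 with a negative difference, limma called 0 (2 higher and 2 lower at an unadjusted p under 0.05), with a median log2 fold change of 0.01. Tspo2, the erythroid relative of the translocator protein gene, had 1.41 (SE 0.35), Kel, the Kell blood group gene, 0.65, Xk, its partner in the membrane, 0.59, and Icam4, the Landsteiner-Wiener blood group gene, 0.49. Tmod1, which encodes an actin-capping protein of the membrane skeleton, had -0.72, but -0.42 with the mean over its rows. The embryonic globin gene Hbb-y had -0.50 with both group means under the olfactory receptor percentile. As with Rhag, p65 KO replicate 2 lay below the other knockouts for Kel (-1.16) and Tspo2 (-0.92). It did so less for Icam4 (-0.25) and Tmod1 (-0.09), and not for Xk (0.04) and Hbb-y (0.04). Over the 26 genes replicate 2 was the lowest knockout in 15, against 31.3% of all genes, with a median departure of -0.10.

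Of 18 other heme genes 1 rose and 0 fell by limma, with a median log2 fold change of 0.19, or 0.07 without p65 WT replicate 1. The gene that rose was Tspo, whose product in the outer mitochondrial membrane binds porphyrins, at 10.55, 10.53 and 10.25 in p65 KO, against 8.89, 9.39 and 9.50 in p65 WT. The groups lay far apart (2.27-fold, limma adjusted p = 0.0431), but the call was lost on leaving out any array other than p65 WT replicate 1, with an adjusted p of 0.00429 to 0.236 over 15 alternatives. The log2 fold change of Flvcr1, a heme exporter gene, was 0.93, followed by 0.78 for Abcb10, a mitochondrial transporter gene that works with mitoferrin-1, 0.52 for Blvra, a biliverdin reductase gene, and 0.48 for Abcb6, a porphyrin transporter gene, and none passed with all arrays. The wild-type means of Abcb10 and Abcb6 were under the olfactory receptor percentile. Without p65 WT replicate 1 Flvcr1 was 0.67 and passed (limma adjusted p = 0.0353, within 0.0215 to 0.367 over the alternatives). Hmox1, a heme oxygenase gene, which breaks heme down, had -0.93 (SE 0.34) with a wide knockout spread, at 7.12, 6.37 and 7.94 in p65 KO and 7.92, 8.16 and 8.12 in p65 WT.

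Of 33 other iron genes limma called 0 with all arrays (5 higher and 2 lower at an unadjusted p under 0.05), and their median was 0.19, or 0.05 without p65 WT replicate 1. The genes with the smallest p were those of iron-sulfur cluster assembly, Glrx5 (0.79, SE 0.16, limma adjusted p = 0.0675), Lyrm4 (0.41) and Isca2 (0.40), the metal transporter gene Slc39a8 (0.50), and Hjv (-0.71) and Tmprss6 (-0.42), regulators of hepcidin in liver. Glrx5 passed without p65 WT replicate 1 (0.68, limma adjusted p = 0.0315, within 0.0144 to 0.305 over the alternatives), and Hjv did so too (-0.53, adjusted p = 0.0394, within 0.0237 to 0.358). The means of Hjv and Tmprss6 were under the olfactory receptor percentile in both groups.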

How the data were processed

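A log2 expression value per probe set and array was deposited by the authors, for 6 arrays, made with RMA, Affymetrix Expression Console and Partek per the submitters' processing notes. RMA corrects background, normalizes and summarises probes. Per the labels' protocols, RNA from cells sorted into lysis buffer was purified (Qiagen RNeasy) and amplified with NuGEN Ovation Pico WTA V2, which can alter signal range. Mouse Exon 1.0 ST is the array in the design text, but the row annotation used here belongs to Mouse Gene 1.0 ST, and which is right was not settled. No depth applies to arrays, and their number limits the precision.

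Of 35557 rows, 21789 have 1 gene symbol, which gave 19938 genes after keeping, for a gene with several, the brightest row on average. p65 KO was compared with p65 WT by limma 3.58.1 under R 4.3.3 in a fit of genotype alone (residual degrees of freedom 4), with two-sided Benjamini-Hochberg adjustment over all genes at 0.05, and the test was tested on simulated data. Labels describe each sample as 1 mouse. Deviations from group means of same-numbered arrays correlated at 0.368, 0.119 and 0.162, all above the 0.1 set for pairing. But replicate 3 of p65 KO and replicate 2 of p65 WT reached 0.195. Replicate 2 of p65 KO and replicate 3 of p65 WT reached 0.183, so the pairing by number is weakly founded. Blocked values are given where they change a call. Promoter windows come from RefSeq.

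All measured members are named. Signals on every array are given for members called with all arrays, with the block or without 1 array. They are also given for the 4 members of each class with the smallest p, and for Gata1, Klf1, Alas1, Alas2, Tfrc and Tfr2. Signals of Slc40a1, Rhd, Mpo, Ebf1, Cd79a, S100a8, Tspo and Hmox1 were added after their values were seen. Of each related list, the 6 genes with the smallest p are named. The members and lists were chosen with earlier results of these data known. Alternatives were quantile, cyclic loess and median scaling, a filter on dim genes, the block, an intensity trend, robust variances, array weights, the mean over rows and leaving out each array.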

Additional observations from a re-analysis of the deposited data

How the results depend on the processing

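Alas1 kept its direction and its call under all 15 alternatives. With the replicate block, the dim genes left out or array weights, 2 members were called instead of 1, the second being Tfrc, and leaving out 1 array gave 1 to 2. The block changed no other call among the 29 members, and of the marker genes it added Cd68 and Mecom. Genes called in all numbered 163, and 104 with quantile normalization, 314 with arrays centred on their medians, 525 without dim genes, 372 with the replicate block, 1599 with array weights and 21 to 929 on leaving out 1 array. The class medians stayed positive under the 15 alternatives, at 0.17 to 0.68 for erythroid identity, 0.18 to 0.41 for heme enzymes and 0.097 (cyclic loess) to 0.39 for iron handling. Of the 29 members 22 kept their sign throughout. Leaving out 1 array gave -0.082 to 0.75 for Rhd, -0.074 to 0.087 for Sptb, -0.46 to 0.12 for Ppox, -0.038 to 0.67 for Slc40a1 and -0.17 to 0.31 for Slc25a38. Quantile normalization gave -0.040 for Tfr2 and -0.0080 for Slc25a38, and cyclic loess normalization -0.12 for Tfr2, -0.029 for Fth1 and -0.066 for Slc25a38. The cause of these shifts was not tested. Alas2, Epb42 and the wild-type signal of Rhag lie at the level of olfactory receptor genes, which limits what their differences show.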
